A study of Mus musculus with 2 samples.

Results

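Osteocalcin and matrix Gla protein are the small vitamin K-dependent proteins of mineralised tissue and of the vessel wall, and the mouse genes that encode them were followed here across the cells of the incisor. The set was defined by name as the 3 osteocalcin genes, Bglap, Bglap2 and Bglap3, and the matrix Gla protein gene, Mgp, which made 4 of the 31053 genes in the deposited matrix. Their molecule counts were read in barcodes that reached 500 detected genes and stayed within 20% mitochondrial counts. All 4 genes were detected.

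The cells came from the lower incisors of untreated C57BL/6 mice at 4 weeks of age. The jaw bone and the proximal end of the tooth were cut away, and the pulp was digested together with its epithelium, so that the preparation held more than the dental mesenchyme its tissue label names. Droplet libraries that read the 3′ end of each transcript and count unique molecular identifiers (UMIs) were sequenced. The labels list 2 samples whose titles differ only in a lane-style suffix, but the data are a single matrix with no map from barcodes to titles, so everything below describes 1 sample. The labels do not give the number of mice that were pooled, and no group was treated or mutant. With 1 sample no test between conditions was possible, and every interval below is an exact 95% interval that covers counting error only.

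Osteocalcin is secreted by cells that build bone and dentin and binds calcium in the mineral of the matrix. Matrix Gla protein is best known from cartilage and the arterial wall, where it restrains calcification. Both carry gamma-carboxyglutamate (Gla) residues, which the carboxylase Ggcx makes from glutamate with reduced vitamin K as its cofactor, and which the reductase Vkorc1 keeps supplied by recycling the vitamin. In the incisor, mesenchymal odontoblasts lay down dentin and epithelial ameloblasts lay down enamel.

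The 3 osteocalcin genes lay side by side on the minus strand of chromosome 3 in GRCm38 (GENCODE M21 annotation). Bglap spanned chr3:88383501-88384464, Bglap2 spanned chr3:88377736-88378699 and Bglap3 spanned chr3:88368616-88372743. The gaps were 4992 bases between Bglap3 and Bglap2 and 4801 bases between Bglap2 and Bglap. Mgp lay alone on the minus strand of chromosome 6, at chr6:136872435-136875823. Each of the 4 genes had 4 exons. The coding sequences of the osteocalcin copies are printed because their likeness limits how far counts of the copies can be told apart. Capitals mark the 13 positions of the 288 coding bases, stop codon included, at which the copies were not all the same.

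Bglap: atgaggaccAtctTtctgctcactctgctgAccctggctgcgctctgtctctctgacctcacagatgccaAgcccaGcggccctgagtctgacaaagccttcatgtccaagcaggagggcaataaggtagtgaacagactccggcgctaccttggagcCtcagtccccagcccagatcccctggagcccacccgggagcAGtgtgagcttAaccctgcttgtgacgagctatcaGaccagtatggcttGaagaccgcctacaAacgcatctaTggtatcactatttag
Bglap2: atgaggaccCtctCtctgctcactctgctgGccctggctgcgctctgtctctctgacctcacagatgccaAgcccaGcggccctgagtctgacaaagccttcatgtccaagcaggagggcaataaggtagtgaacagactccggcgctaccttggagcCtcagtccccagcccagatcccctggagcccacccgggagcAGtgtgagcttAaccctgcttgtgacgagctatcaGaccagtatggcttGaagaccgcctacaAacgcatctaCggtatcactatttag
Bglap3: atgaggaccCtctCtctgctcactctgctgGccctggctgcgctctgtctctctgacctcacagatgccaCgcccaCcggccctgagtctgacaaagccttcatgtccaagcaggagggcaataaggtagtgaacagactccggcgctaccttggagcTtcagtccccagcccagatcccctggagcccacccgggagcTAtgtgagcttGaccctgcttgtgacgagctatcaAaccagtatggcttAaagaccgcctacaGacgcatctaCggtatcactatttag

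Bglap and Bglap2 shared 284 of 288 coding bases, Bglap and Bglap3 shared 275, and Bglap2 and Bglap3 shared 279. At the transcript end, where a 3′ library reads, the last 149 bases of Bglap and Bglap2 were identical, and Bglap3 shared the last 78 bases with both. Of all 50-base windows of the Bglap transcript, 74.7% also occurred in Bglap2 and 20.5% in Bglap3. The split of UMIs between the copies, and any loss of reads that matched several of them, therefore depends on how the reads were assigned, a step that was not described in the labels or headers used. The summed osteocalcin count is less exposed to the split but not to the loss.

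Promoter sequence was at hand in RefSeq (GRCm38.p6) for Bglap and Bglap3. The 150 bases upstream of the Bglap start, chr3:88384467-88384616 on the minus strand, are shown because they hold a match to the core motif of the RUNX factors, to which the osteoblast regulator Runx2 belongs, and a TATA box.

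Bglap upstream: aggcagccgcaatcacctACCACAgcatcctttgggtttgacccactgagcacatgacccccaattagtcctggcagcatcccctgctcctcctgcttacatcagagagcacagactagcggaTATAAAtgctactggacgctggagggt

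Capitals mark the RUNX core ACCACA, whose first base lay 132 bases before the start, and the TATA box TATAAA, 27 bases before it. Searched on both strands of windows of equal length, ACCACA was in 16.8% and TATAAA in 13.6% of the 32851 promoters in the table. The Bglap window also held the box CCAAT, found in 37.4% of promoters, and an E box, CANNTG, found in 72.3%. It held no match to the homeodomain core TAATTA, the GC box GGGCGG or the receptor site AGGTCA. None of the 3 windows listed for Bglap3 matched ACCACA or TATAAA. Only exact letters were searched, and a Bglap3 window holds the similar run TATATAAG. The missing match to TATAAA therefore does not mean that Bglap3 lacks a TATA-like sequence. These matches are letters in a window and say nothing about binding.

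Of the 5336 barcodes with at least 500 genes, 4775 passed the mitochondrial limit, and 4534 were left after 122 called doublets and 119 cells rich in haemoglobin counts were removed. They held a median of 5788.5 UMIs and 1874 genes. Clustering was run without the 4 genes, without the gene lists used below and without mitochondrial genes, and it gave 28 clusters. The mesenchymal class held 2203 cells in 8 clusters, the epithelial class 769 cells in 6, the endothelial class 74 cells in 1, and the immune classes 1157 cells. Clusters are called by their leading gene, with a cell type name added where at least 3 marker genes of that type were raised. The kept cells held 79.6% of all Bglap UMIs in the matrix, 78.6% for Bglap2, 70.8% for Bglap3 and 68.4% for Mgp. Droplets with 1 to 20 UMIs, taken as the free RNA of the suspension, held Bglap at 315 counts per 1000000 UMIs (CPM), Bglap2 at 88.2 CPM, Bglap3 at 21.5 CPM and Mgp at 225 CPM.

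Osteocalcin was a mesenchymal transcript and Mgp an epithelial and endothelial transcript. Mesenchymal cells held 99.2% of the osteocalcin UMIs of the kept cells, whereas epithelial cells held 83.3% of the Mgp UMIs, endothelial cells 13.3% and mesenchymal cells 2.61%. Bglap stood at 1320 CPM (interval 1304 to 1337) in mesenchymal cells and at 5.82 CPM (4.43 to 7.50) in epithelial cells. The log2 ratio of mesenchymal to epithelial cells was 7.83 (7.46 to 8.22), which ranked 7 among the 12920 genes with at least 30 UMIs over both classes. It was 7.76 for Bglap2 and 6.64 for Bglap3. Mgp went the other way, with 4.39 CPM (3.48 to 5.48) in mesenchymal and 249 CPM (239 to 259) in epithelial cells, a log2 ratio of -5.82 (-6.17 to -5.50). A gene was called different at a 2-fold ratio with at least 30 UMIs over both sides. By that rule the 3 osteocalcin genes were higher in mesenchyme, as were 20% of all genes measured, and Mgp was lower, as were 10.5%. The Bglap log2 ratio was 6.26 with every cell weighted equally and 6.75 without the 21 cells richest in osteocalcin, described below. The Mgp ratio was -5.02 with equal weights and -6.50 with a mitochondrial limit of 10%.

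The epithelial osteocalcin counts did not rise above background. Bglap stood at 21.2 CPM (16.2 to 27.2) in macrophage-like cells and at 44.3 CPM in B cells, which are not known to make it. The epithelial level of 5.82 CPM lay below both. Shares of cells with a UMI were likewise highest in mesenchyme. Of 2203 mesenchymal cells, 463 (21.02%) held a Bglap UMI at a median depth of 7006 UMIs, against 5.46% of epithelial cells at 9304, 8.02% of macrophage-like cells at 4153.5 and 7.28% of B cells at 1694. After each cell was thinned to 2000 UMIs, which left out 691 shallower cells over all classes, the share was 13.4% (11.98 to 14.99) in mesenchyme, 1.41% in epithelium, 3.64% in macrophage-like cells and 7.35% in B cells. For Mgp the thinned share was 24.2% (21.1 to 27.5) in epithelium, 51.5% (38.9 to 64.0) in endothelium, 0.639% in mesenchyme and 0.202% in macrophage-like cells, and the unthinned shares were 41.4%, 58.1%, 1.82% and 1.02%.

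**Figure D1:**
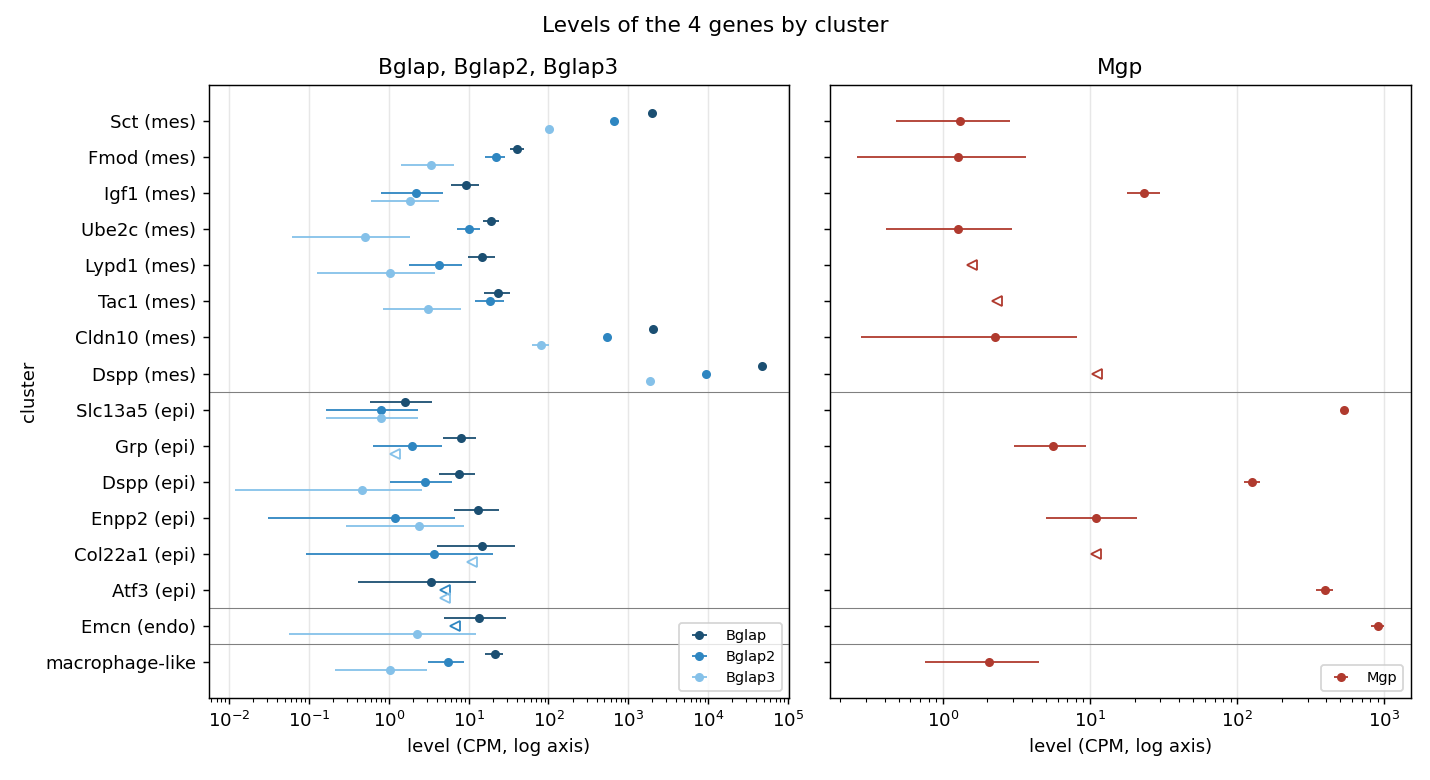
Level of Bglap, Bglap2, Bglap3 and Mgp in the mesenchymal, epithelial and endothelial clusters and in macrophage-like cells, in CPM on a log axis. Points are summed counts of 1 cluster, bars are exact 95% Poisson intervals and open triangles mark the floor of 3 counts where a cluster held no UMI; osteocalcin peaked in the Dspp mesenchymal cluster and Mgp in the Emcn endothelial-like and Slc13a5 ameloblast-like clusters.

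Within the mesenchyme, osteocalcin was concentrated in 3 of 8 clusters. The smallest was the richest. It held 21 cells led by Dspp, the dentin sialophosphoprotein gene, Ibsp, the bone sialoprotein gene, Slc13a5, Car3 and Mmp20. In it Bglap stood at 46774 CPM (45961 to 47597), which was 4.68% of all UMIs of those cells, with Bglap2 at 9435 CPM and Bglap3 at 1868 CPM. Every cell of the cluster held UMIs of all 3 copies, from 152 to 2387 osteocalcin UMIs per cell with a median of 485. Mgp was not detected in these cells, which allowed a level of up to 13.7 CPM at the interval's upper end. These 21 cells held 52.7% of all Bglap UMIs of the kept cells.

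The identity of these cells was not settled by marker genes. Of the odontoblast markers 7 of 9 were raised, and of the osteoblast markers also 7 of 9. The lists share Dmp1, Sp7 and Ifitm5, and the osteocyte and odontoblast matrix gene Mepe was at 0. The cluster is therefore called by its leading gene only. Against all other mesenchymal cells, the log2 ratio was 6.22 (6.18 to 6.26) for Bglap, 5.53 for Bglap2 and 5.89 for Bglap3, with ranks of 7, 12 and 9 among 12059 genes. All 3 were called higher, in a comparison in which 10.1% of genes were called higher and 18.2% lower, and Mgp was not called. With the free-RNA level subtracted the Bglap ratio was 7.22. That took the full 315 CPM of the free droplets off both sides, with the other mesenchymal cells at 628 CPM. Macrophage-like cells held Bglap at 21.2 CPM, so the subtraction can take off too much.

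The second cluster, 411 odontoblast-like cells led by Sct, the secretin gene, held Bglap at 1982 CPM, Bglap2 at 656 CPM and Bglap3 at 101 CPM. The name rests on 5 of 9 odontoblast markers raised, against 4 of 9 osteoblast markers, with Sp7 and Ifitm5 in both counts. The 5 were Ifitm5, Nes, Sp7, Col24a1 and Smpd3. Dspp, Dmp1 and Phex did not pass the rule for a raised marker, which also asks for presence in 25% of cells, and Mepe was at 0. The name is therefore weak. Its cells differed widely among themselves. Osteocalcin UMIs per cell ran from 0 to 680 with a median of 2 and an upper quartile of 13, and 225 of the 411 cells held a Bglap UMI. The log2 ratio to the other mesenchymal cells was 0.86 for Bglap, 1.48 for Bglap2 and 1.19 for Bglap3, so that Bglap2 and Bglap3 were called higher, with 5.76% of genes, and Mgp, at 1.31 CPM, lower, with 17.8%. The Dspp mesenchymal cluster held 12622 of the 14650 Bglap UMIs of those other cells. The direction of these ratios also depended on how the cells were divided. Sub-clustering at a finer resolution of 1 split off 3 groups of graded osteocalcin level. A group of 139 cells led by Plac8 held Bglap at 24.8 CPM and Bglap2 at 26.4 CPM, a group of 191 cells that kept Sct as its leader held them at 541 and 322 CPM, and a group of 66 cells led by Dmp1 held them at 7887 and 2249 CPM.

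The 4 matrix genes read in these groups, Dmp1, Phex, Ifitm5 and Col1a1, followed the same order; they were chosen after their values were seen. Dmp1, the dentin matrix protein gene that odontoblasts and osteocytes express, was at 0, 11.7 and 682 CPM in turn. The collagen gene Col1a1 stood at 5296, 18010 and 38786 CPM, Phex, an endopeptidase gene of phosphate handling, at 1.60, 16.9 and 185 CPM, and Ifitm5 at 63.9, 470 and 1183 CPM. The median depths of the 3 groups were 8254, 9019 and 11740 UMIs. The Sct-led group, the largest piece with 191 of the 411 cells, had a Bglap log2 ratio of -1.41 to the other mesenchymal cells. Those other cells included the Dspp mesenchymal cluster and the Dmp1-led group. With at least 1000 genes per cell the cluster came apart into a piece of 191 cells led by Lgals3, with Bglap at 42.2 CPM and a log2 ratio of -5.19, and a piece of 187 cells led by Dmp1, with Bglap at 3765 CPM. A remaining group of 14 shallow cells, led by Hbb-bs, held no osteocalcin UMI.

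The third cluster, 123 cells led by Cldn10 that matched no marker list, held Bglap at 2010 CPM, Bglap2 at 544 CPM and Bglap3 at 80.5 CPM. Here a pair of cells carried most of the signal. They held 742 and 576 osteocalcin UMIs, 56.7% of the cluster's total, and without them Bglap fell to 918 CPM. The log2 ratio of Bglap to other mesenchymal cells was 0.65 with these cells and -0.49 without them. Even so, 76 of the 123 cells held at least 1 Bglap UMI. Of the 21970 Bglap UMIs in the other mesenchymal cells, the Dspp mesenchymal cluster held 12622, and the ratio was not taken without that cluster. At 918 CPM the Cldn10 cluster still stood above the clusters described next, which reached at most 40.5 CPM.

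In the remaining 5 mesenchymal clusters, in each of which all 3 copies were called lower than in the other mesenchymal cells, Bglap ran from 9.20 CPM in the Igf1 dental follicle-like cluster to 40.5 CPM (32.9 to 49.4) in the Fmod dental pulp-like cluster. The unnamed cycling Ube2c cluster stood at 19.0 CPM, the Tac1 dental pulp-like cluster at 23.3 CPM and the Lypd1 apical mesenchyme-like cluster at 14.7 CPM. The 10 immune clusters ran from 7.55 to 70.5 CPM, the highest being the Ms4a1 cluster on 16 UMIs, so none of these 5 clusters stood outside the immune range. The interval of the Fmod cluster nevertheless lay above the 22.4 CPM (18.2 to 27.2) of all immune cells. The share of all genes called lower was 10.7% in the Fmod cluster, 9.97% in the Igf1 cluster, 11.8% in the Ube2c cluster, 11.5% in the Lypd1 cluster and 14.5% in the Tac1 cluster. Bglap2 ran up to 21.7 CPM in the Fmod cluster and 18.6 CPM (11.9 to 27.7) in the Tac1 cluster. The immune clusters ran from 0 to 22.02 CPM for Bglap2, with B cells of the Ms4a1 cluster the highest, on 5 UMIs. The Fmod and Tac1 values lay within that range but above the 6.65 CPM (4.49 to 9.49) of all immune cells.

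**Figure D2:**
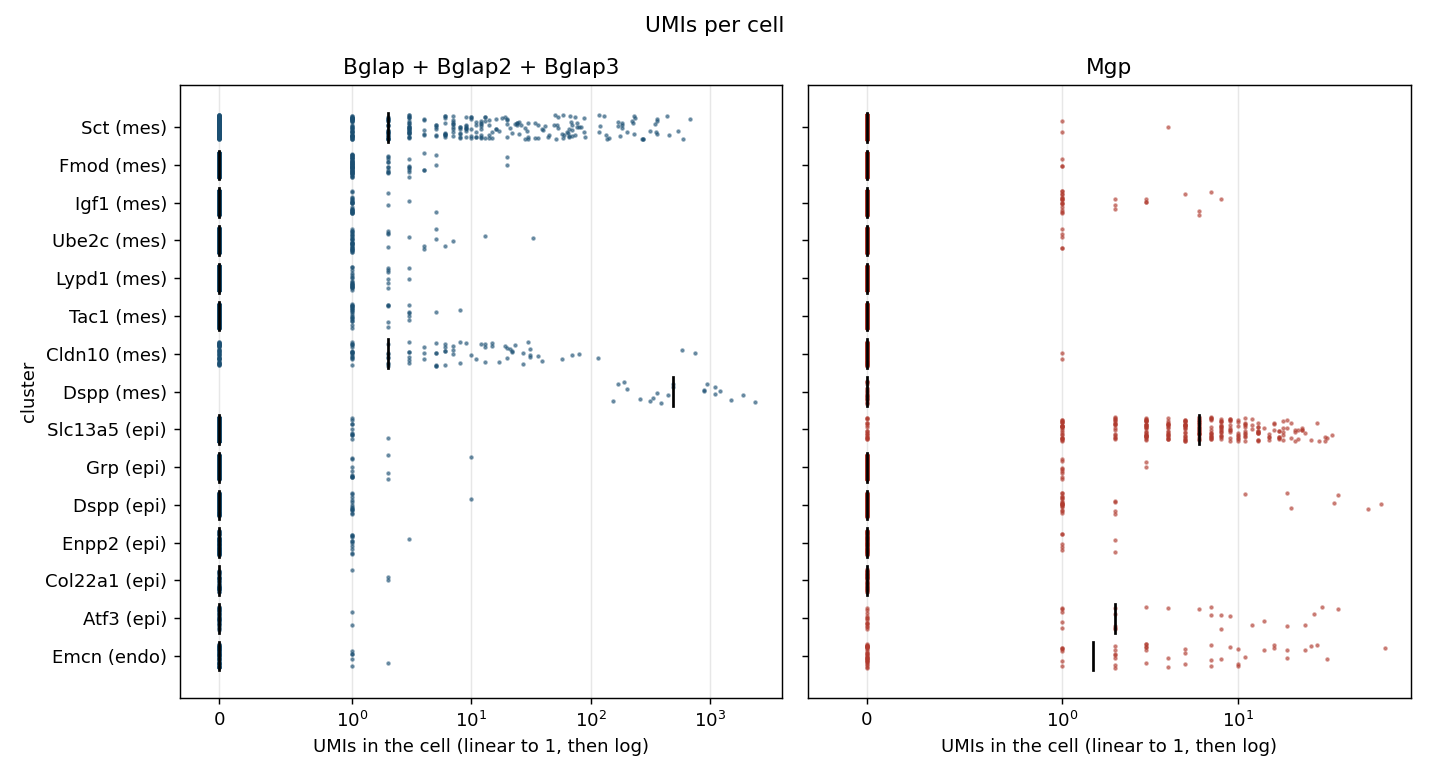
Osteocalcin and Mgp UMIs per cell, in separate panels, in the mesenchymal, epithelial and endothelial clusters. The axis is linear up to 1 and logarithmic above. Each point is a cell and each black bar a median; all 21 cells of the Dspp mesenchymal cluster hold at least 152 UMIs, while the Sct cluster spreads from 0 to 680.

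Single cells carried very unequal amounts. The 20 cells with most Bglap held 59.4% of its UMIs, and 13 of them belonged to the Dspp mesenchymal cluster, 5 to the Sct cluster and 2 to the Cldn10 cluster. Mgp was spread more evenly, with 23.1% of its UMIs in its top 20 cells. All 146 cells with at least 10 Bglap UMIs were mesenchymal. Of the cells with at least 10 Mgp UMIs, 88 were epithelial, 14 endothelial and none mesenchymal. Mgp was held by 3 of the 570 mesenchymal cells with an osteocalcin UMI, against 40 of all 2203 mesenchymal cells. Osteocalcin was held by 15 of the 318 epithelial cells with Mgp, against 55 of all 769 epithelial cells. In the Slc13a5 cluster all 11 cells with osteocalcin held Mgp, as did 247 of its 264 cells.

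The 3 osteocalcin copies did not keep a fixed ratio. Bglap was the most abundant copy in the osteocalcin-rich cells, and the share of Bglap2 was larger in some groups of lower osteocalcin but not in all. Bglap2 made 16.2% of osteocalcin UMIs in the Dspp mesenchymal cluster, 20.7% in the Cldn10 cluster and 21.4% (20.6 to 22.2) in the Dmp1-led group of the Sct cluster. It made 35.8% (33.7 to 37.9) in the Sct-led group and 51.6% (38.7 to 64.2) of the 64 UMIs in the Plac8-led group. The intervals of these last groups did not overlap that of the Dmp1-led group. They pool the UMIs of all cells of a group, so they do not measure the spread between cells. In the Igf1 and Lypd1 clusters, which held the least osteocalcin, it made 16.7% (6.37 to 32.8) of 36 UMIs and 21.1% (9.55 to 37.3) of 38, close to the shares in the rich clusters.

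Grouping mesenchymal cells by their own osteocalcin level gave a falling Bglap2 share. The ranges were cut on the summed count of the copies, so the shares were not independent of the grouping. In the 370 cells with up to 1000 CPM, Bglap2 made 40.7% (37.7 to 43.7) of osteocalcin UMIs. It made 28.0% (26.7 to 29.3) in the 143 cells from 1000 to 10000 CPM and 17.5% (17.1 to 18.0) in the 57 cells above 10000 CPM. Bglap rose in turn from 55.6% to 68.2% and 79.1%, and Bglap3 stayed between 3.34% and 3.83%. In immune cells Bglap2 made 22.4% of osteocalcin UMIs, and in free droplets 20.7%. The mesenchymal range of up to 1000 CPM held a larger Bglap2 share than immune cells or free droplets. Those 2 were not cut on the osteocalcin count, so the shares are not a like comparison. Among single cells with at least 50 osteocalcin UMIs, the Bglap2 share had a median of 23.1% in 61 cells of the Sct cluster and of 16.1% in the 21 cells of the Dspp cluster. The cell ranges overlapped, from 1.72% to 61.5% in the former and from 4.37% to 37.0% in the latter. In the Fmod cluster 48 of 392 cells held Bglap, 35 held Bglap2 and 9 held both. How reads were assigned between the near-identical copies printed above was not tested.

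**Figure D3:**
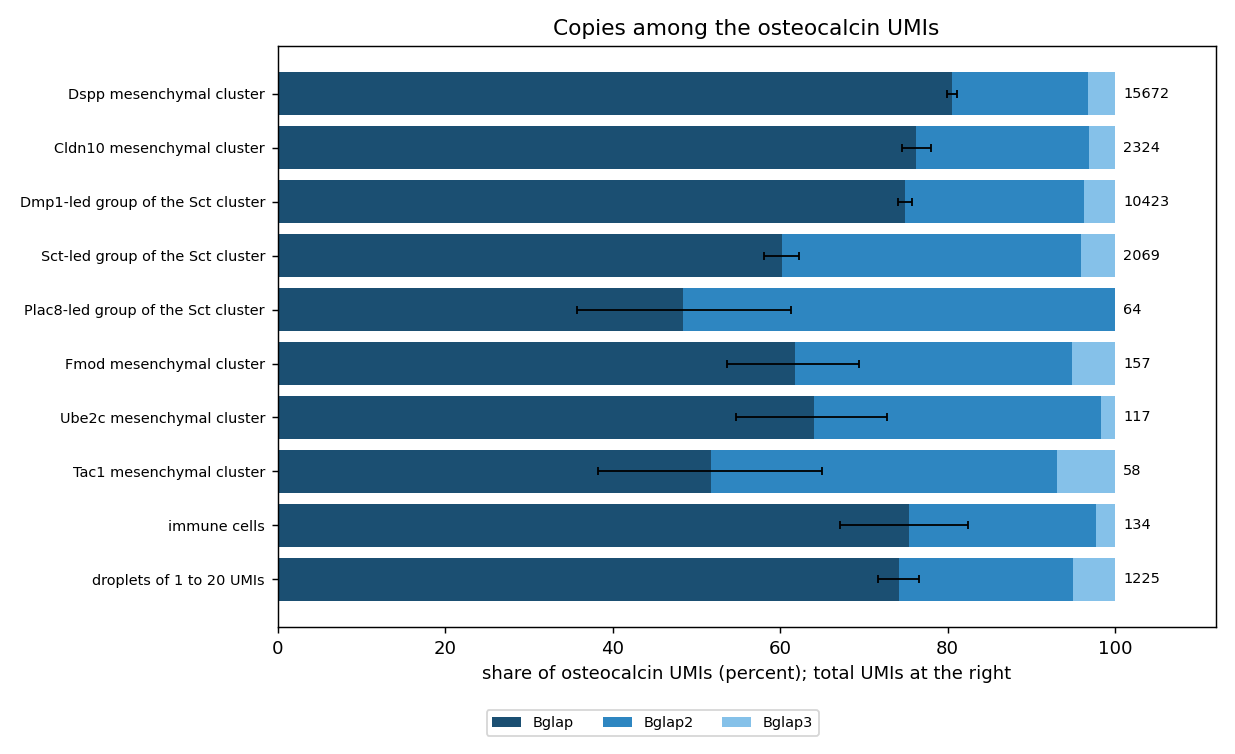
Share of Bglap, Bglap2 and Bglap3 in the osteocalcin UMIs of mesenchymal groups, immune cells and free droplets, with the number of UMIs at the right. Bars are stacked shares in percent and the error bar is the exact 95% interval of the Bglap share; the Bglap2 share is 16.2% in the Dspp mesenchymal cluster and 35.8% in the Sct-led group.

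Most matrix genes examined were higher where osteocalcin was higher within the mesenchyme, and they were not used to form the ranges. The cells of the ranges sat in different clusters, so the courses are largely comparisons of clusters. The Igf1 cluster gave the most cells without osteocalcin, 355 of 1633, and the Sct cluster the most in each range above, 125 of 370, 103 of 143 and 34 of 57. Of 10 matrix genes, Col1a1, Dmp1, Dspp, Phex, Ifitm5, Alpl and Sparc were higher at each step, and Col1a2, Ibsp and Spp1 were not. From the 1633 cells without osteocalcin through the 3 ranges above it, Col1a1 stood at 3657, 8529, 25714 and 62502 CPM. Dmp1 stood at 1.84, 3.09, 105 and 804 CPM, and Dspp at 1.84, 5.67, 59.1 and 1236 CPM. Ifitm5, which encodes a membrane protein of mineralising bone cells, was already at 164 CPM in the lowest range with osteocalcin, against 14.6 CPM in cells without it. Ibsp stood at 51.4, 39.4, 59.8 and 1859 CPM, Spp1 at 71.4, 1.80, 25.1 and 473 CPM and Col1a2 at 1375, 894, 1427 and 8909 CPM. In these 3 genes the range above 10000 CPM, which holds all 21 cells of the Dspp mesenchymal cluster, stood apart from the lower ranges.

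The osteoblast transcription factors did not share this course. Sp7, which is needed for osteoblast maturation, stood at 91.5, 185, 313 and 276 CPM. Runx2 stood at 114 CPM in cells without osteocalcin and at 70.4, 50.3 and 51.1 CPM in the ranges above. The Igf1 cluster, which gave the most cells without osteocalcin, was the only mesenchymal cluster in which Runx2 was called higher. The course of Runx2 was not read without that cluster. The cycling gene Mki67 fell from 88.3 and 42.3 to 2.04 and 1.42 CPM. The carboxylation genes were higher where osteocalcin was higher: Ggcx stood at 10.2, 17.5, 25.8 and 32.7 CPM and Vkorc1 at 179, 213, 362 and 538 CPM. Median depth also rose over the ranges, from 6669 to 7929.5, 8919 and 10959 UMIs, and 2 enamel genes varied with them, Ambn at 210, 528, 689 and 646 CPM and Amelx at 405, 1150, 202 and 243 CPM. The part of depth and of epithelial RNA in these courses was not tested.

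**Figure D4:**
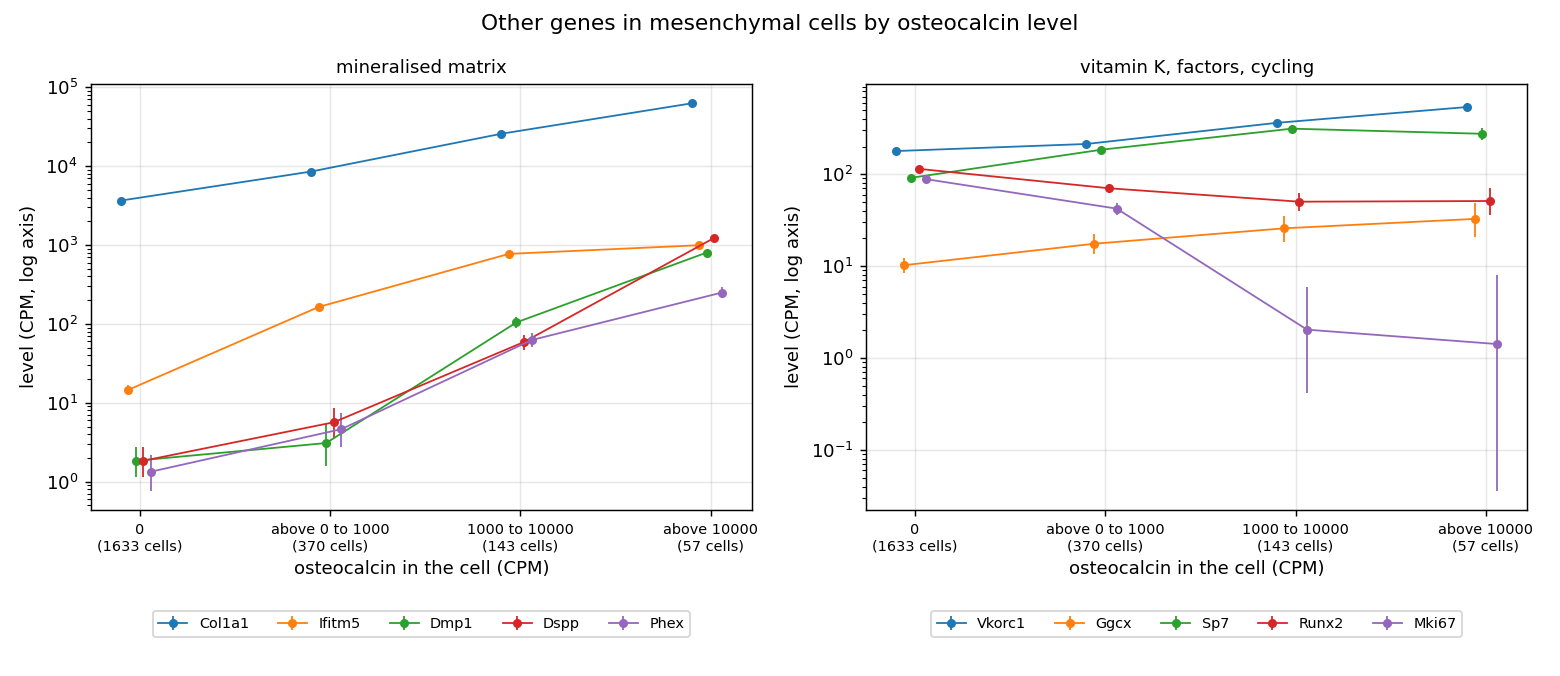
Level of matrix, regulator and carboxylation genes in mesenchymal cells without osteocalcin and in 3 ranges of osteocalcin level, in CPM on a log axis. Points are summed counts of the cells of a range, bars exact 95% Poisson intervals, and lines join the ranges of a gene. Col1a1, Dmp1 and Dspp rise to the highest range. Runx2 stands at 114 CPM in cells without osteocalcin, which include most of the Runx2-rich Igf1 cluster, and at 51.1 CPM in the highest range.

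Genes of mineralised matrix were high in the same cells as osteocalcin. Of the mineralised matrix list, 13 of 15 genes were measured between mesenchyme and epithelium. Of these 11 were called higher in mesenchyme, against 20% of all genes, with a median log2 ratio of 6.01 against 0.29 over all genes. The largest ratios were 9.54 for Ifitm5, 7.85 for Spp1, the osteopontin gene, and 7.53 for Col1a1. Dspp and Col22a1 were called higher in epithelium, Dspp with a log2 ratio of -2.56. In the Dspp mesenchymal cluster against the other mesenchymal cells, 11 of 13 measured matrix genes were called higher and Omd lower. Over all genes 10.1% were called higher and 18.2% lower. The list had a median of 3.57 against -0.01 over all genes. Dspp itself stood at 2298 against 21.5 CPM, a log2 ratio of 6.74 (6.55 to 6.93), and Ibsp at 4551 against 52.8 CPM, a log2 ratio of 6.43 (6.31 to 6.55). Phex was higher by a log2 ratio of 4.17 and Sparc, the osteonectin gene, by 4.14.

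The Sct cluster had another matrix profile. Against the other mesenchymal cells it had 6 of 13 measured matrix genes called higher and 4 called lower, against 5.76% and 17.8% of all genes, in the undivided cluster that other settings split. Dmp1 was the highest at a log2 ratio of 5.33, while Ibsp was lower at -2.46 and Spp1 at -1.06. In the Dspp mesenchymal cluster Dmp1 had a log2 ratio of 1.59.

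Among 11 genes listed as regulators of osteocalcin, 5 were called higher in mesenchyme than in epithelium, against 20% of all genes. Runx2 stood at 97.2 CPM in mesenchyme, 11.9 CPM in epithelium and 0 in endothelium, and Sp7 at 137, 24.3 and 0 CPM. The homeobox gene Dlx5 had a log2 ratio of 1.57. The level of Runx2 did not follow that of osteocalcin between clusters: it was highest in the Igf1 dental follicle-like cluster, at 381 CPM, where Bglap was the lowest of the mesenchymal clusters. In the Dspp mesenchymal cluster none of the regulators was called higher, and Dlx5, Runx2 and Cbfb were called lower, with log2 ratios of -1.54 (-2.42 to -0.79), -1.40 (-2.47 to -0.52) and -1.09 (-2.16 to -0.21). Over all genes 10.1% were called higher and 18.2% lower in this comparison. In the Sct cluster Sp7 was called higher at 1.64 and Msx2 at 1.05, and Runx2 lower at -1.30. The other mesenchymal cells in the Dspp and Sct comparisons included the Igf1 cluster. Runx2 was also called lower in the Ube2c, Lypd1, Tac1 and Cldn10 clusters.

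The genes of the vitamin K cycle were far more even between cell classes than the Gla proteins they serve. Ggcx stood at 13.96 CPM in mesenchyme, 14.3 CPM in epithelium, 8.98 CPM in endothelium and 2.73 CPM in macrophage-like cells. Vkorc1 stood at 215, 195, 110 and 90.9 CPM in the same order. Of 7 listed genes all were measured, and Nqo1, a quinone reductase gene, was the only 1 called different between mesenchyme and epithelium, with 11.8 against 0.591 CPM. The list's median log2 ratio of 0.33 lay beside 0.29 over all genes. In the Dspp mesenchymal cluster 3 of the 7 were called higher, against 10.1% of all genes. Ggcx stood at 40.8 against 13.6 CPM, a log2 ratio of 1.59 (0.57 to 2.45) on 11 UMIs in the cluster, and Vkorc1 at 526 against 211 CPM, a log2 ratio of 1.32 (1.07 to 1.56). Aifm2, a vitamin K reductase gene, rested on 4 UMIs there, and its interval reached below 0.

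Other Gla protein genes had patterns of their own. Of 17 listed, 9 had enough UMIs to be measured between mesenchyme and epithelium. The liver coagulation factor genes were among those below the limit. Besides osteocalcin, Gas6, a ligand of the TAM receptors, Pros1, the protein S gene, and Prrg1, which encodes a transmembrane Gla protein, were called higher in mesenchyme. In the Dspp mesenchymal cluster these 3 were called lower, as were 18.2% of all genes, on few UMIs, 2 for Gas6 and 1 for Prrg1. The processing gene Furin, whose product cleaves proproteins, stood at 96.3 CPM in that cluster and 47.1 CPM in other mesenchymal cells, a log2 ratio of 1.03 (0.41 to 1.59).

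The genes whose level over the 28 clusters was most like that of Bglap were, after Bglap2 and Bglap3 with Pearson r of 0.96 and 0.95 on log2(CPM + 5), Ifitm5 at 0.91 and Slc8a3, a sodium-calcium exchanger gene, at 0.90. Chst13, a chondroitin sulfotransferase gene, followed at 0.87, Phex at 0.86, Shisa4 at 0.85 and the collagen gene Col24a1 at 0.84. The clusters come from the same cells and library, and the coefficients are given as a description. Bglap and Mgp had an r of -0.33.

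Mgp reached its highest level in endothelial-like cells. The 74 cells of the Emcn cluster, which raised all 10 endothelial markers, held Mgp at 902 CPM (816 to 995), against 4.39 CPM in mesenchyme, a log2 ratio of 7.68 (7.33 to 8.05). By the 2-fold rule Mgp was called higher and the 3 osteocalcin genes lower, in a comparison in which 18% of genes were higher and 16.9% lower. With every cell weighted equally the Mgp ratio was 7.05. Against epithelial cells the Mgp log2 ratio was 1.86, called higher with 22.3% of genes, and Bglap passed the same rule on 6 UMIs. Of the 74 cells, 43 held a UMI, with a median of 1.5 and a maximum of 68 per cell. Bglap stood at 13.5 CPM (4.94 to 29.3) in these cells, within the immune range given above.

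Mgp was uneven among the endothelial cells. The 37 cells with a UMI of Vwf, the von Willebrand factor gene, held Mgp at 1511 CPM (1363 to 1670), and the 37 cells without held it at 104 CPM (63.4 to 160). Of the former 33 had a Mgp UMI and of the latter 10, while the median depths were 4314 and 4584 UMIs. This split was chosen after the values had been seen. The capillary gene Plvap went the other way, with 1024 CPM in the cells with Vwf and 1578 CPM in those without, and Emcn was close to even at 1562 and 1422 CPM. Splitting by a UMI of an arterial gene list gave no such separation: 64 cells with a list UMI held Mgp at 876 CPM (788 to 971) and the 10 cells without at 1247 CPM (887 to 1705).

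In the epithelium, Mgp belonged to the ameloblast-like cells. The Slc13a5 cluster, 264 cells also led by the enamel gene Ambn, held it at 527 CPM (504 to 551). Of these cells 247 (93.6%) held a Mgp UMI, or 58.7% after thinning, with a median of 6 and a maximum of 34 per cell, and they held 66.1% of all Mgp UMIs of the kept cells. The log2 ratio to other epithelial cells was 2.68 (2.54 to 2.82). Mgp was called higher, in a comparison in which 3.11% of genes were called higher and 40.1% lower. The ratio ran from 1.77 with a mitochondrial limit of 10% to 3.37 when genes above 1% of the UMIs were left out of the totals. At that mitochondrial limit the matched cluster held 189 cells, 187 of them from these 264. The Atf3 cluster, 38 ameloblast-like cells led by stress and immediate early genes, held Mgp at 393 CPM (344 to 447).

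The other epithelial clusters held less. The Enpp2 cluster, named for stratum intermedium or outer epithelium, stood at 10.9 CPM and the proliferating Grp cluster at 5.55 CPM, and Mgp was not detected in the 43 cells of the Col22a1 cluster. Mgp was called lower in all 3 against the other epithelial cells, as were 8.61%, 8.92% and 10.5% of genes in turn. Bglap passed the 2-fold rule upwards in the Enpp2 and Col22a1 clusters, as did 18.2% and 8.34% of genes, at 13.3 and 14.7 CPM and so within the immune range. In the Slc13a5 cluster Bglap was called lower, at 1.58 against 8.35 CPM, a log2 ratio of -2.40 (-3.91 to -1.19), with both levels at or below those of most immune clusters. The unnamed Dspp epithelial cluster, 140 cells, stood at 126 CPM (111 to 142), a log2 ratio of -1.17 that was called lower with 18.1% of genes, and rested on few cells. In it 7 cells with at least 10 Mgp UMIs, chosen after the values had been seen, held 242 of its 268 UMIs. Those 7 cells stood at 1254 CPM and the other 133 at 13.4 CPM, with median depths of 28712 and 9932 UMIs. The 7 cells also held more Ambn, at 27884 against 3076 CPM, and less Shh, the early ameloblast signal, at 36.3 against 626 CPM. Genes of other cells were also higher in them: Alpl, a stratum intermedium and osteoblast gene, stood at 161 against 0 CPM, Sparc at 1415 against 114 CPM, Col1a1 at 140 against 45.8 CPM and the endothelial Pecam1 at 10.4 CPM, on 2 UMIs, against 0. Whether the 7 were mixed cells was not tested.

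Along the Mgp level of the cells of the Slc13a5, Atf3 and Dspp epithelial clusters, the cells without Mgp differed most from the rest. They were largely another cluster, with 111 of 141 cells from the Dspp epithelial cluster, while the Slc13a5 cluster gave the most cells of each range with Mgp, so the courses are largely comparisons of clusters. The ranges were 0, up to 300, up to 1000 and above 1000 CPM, with 141, 72, 196 and 33 cells. Amelx, the amelogenin gene, stood at 102299, 220655, 332205 and 238249 CPM, Ambn, the ameloblastin gene, at 5077, 32796, 56630 and 47625 CPM, and the citrate transporter gene Slc13a5 at 13.6, 141, 226 and 148 CPM. Shh fell from 641 to 257, 64.4 and 19.9 CPM. Dspp, which ameloblasts express for a short time early on, fell from 1448 to 601 and 5.94 CPM and stood at 179 CPM in the highest range. Klk4, the protease of the maturation stage, was not detected in the lower 2 ranges. It stood at 1.25 and 25.6 CPM in the upper 2, on 4 and 9 UMIs in 0.510% and 9.09% of their cells. The highest range held 63 Dspp UMIs. The 7 cells of the Dspp epithelial cluster set apart above held 9 Klk4 UMIs, in 3 cells, and 61 Dspp UMIs. The Klk4 count of the highest range equals that of these 7 cells, and its Dspp count is close to theirs. These 2 levels therefore cannot be taken as those of the other cells of the range. The range was not read without the 7 cells. Vkorc1 rose from 197 to 296 CPM, while Ggcx was highest in cells without Mgp, at 24.7 CPM against 16.3, 16.6 and 17.1 CPM. Median depths were 8961, 12941.5, 12660.5 and 8542 UMIs, so the highest range was not the deepest.

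**Figure D5:**
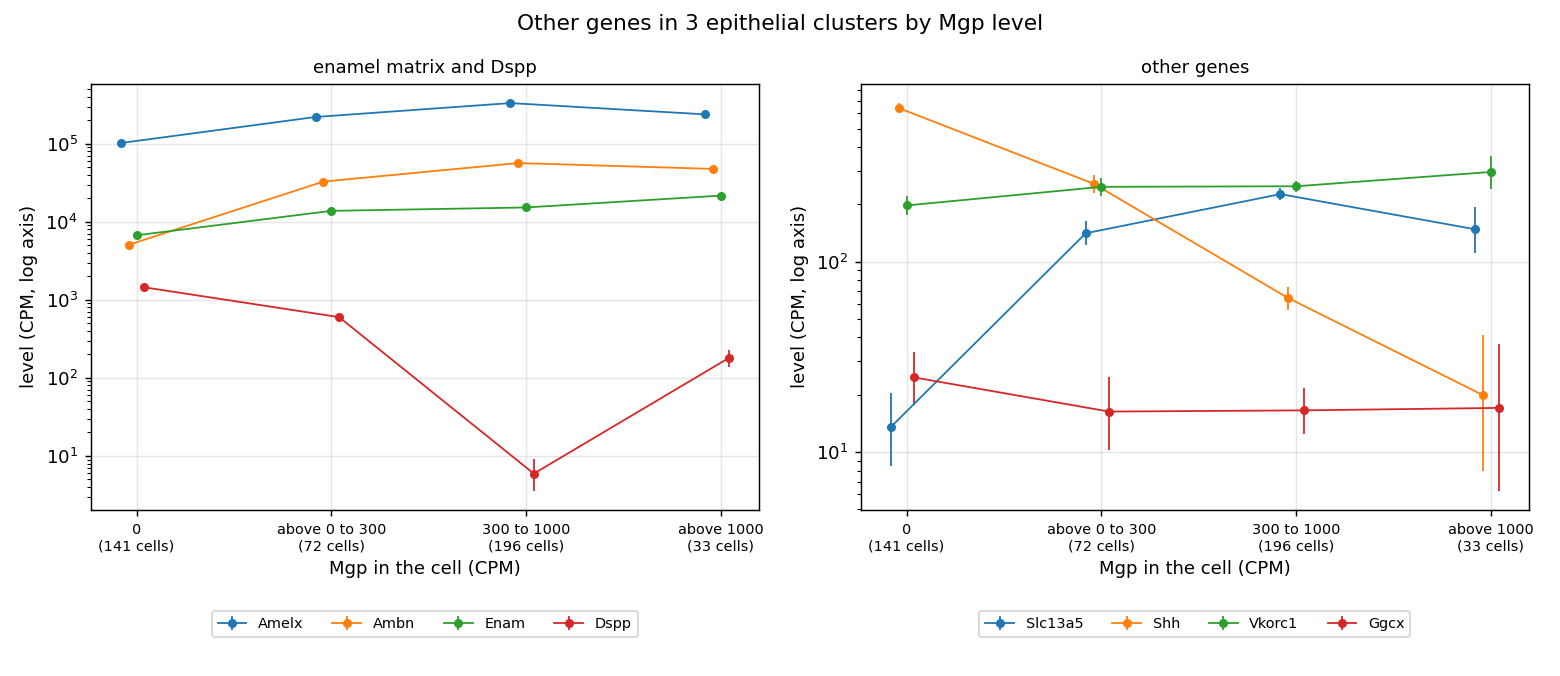
Level of enamel, early ameloblast and carboxylation genes in cells of the Slc13a5, Atf3 and Dspp epithelial clusters without Mgp and in 3 ranges of Mgp level, in CPM on a log axis. Points are summed counts of the cells of a range, bars exact 95% Poisson intervals, and lines join the ranges of a gene; Ambn rises from 5077 to 47625 CPM, and Shh falls from 641 to 19.9 CPM.

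In the mesenchyme Mgp was near the level of macrophage-like cells in all but the Igf1 dental follicle-like cluster. That cluster stood at 23.2 CPM (17.8 to 29.6) in 383 cells, of which 27 held a UMI, and the other mesenchymal cells at 1.05 CPM. Macrophage-like cells stood at 2.05 CPM (0.752 to 4.46). The free-RNA level of Mgp, 225 CPM, lay above each of these levels, and subtracting it left no value for the Igf1 cluster. That subtraction took off the full droplet level, so the missing value does not show that the counts were free RNA. The log2 ratio of the Igf1 cluster to the others was 4.47 (3.66 to 5.36), and Mgp was called higher, as were 15.3% of genes. Within the cluster 12 cells with a UMI of the pericyte gene Rgs5 held Mgp at 247 CPM (146 to 390) and Acta2, the smooth muscle actin gene, at 2167 CPM. The other 371 cells held Mgp at 17.0 CPM (12.4 to 22.8). The finer sub-clustering divided the cluster into a Bmp3-led group of 185 cells with Mgp at 3.27 CPM, a Sfrp2-led group of 150 cells at 37.2 CPM (26.2 to 51.3) and an Igfbp3-led group of 48 cells at 108 CPM (66.6 to 164), of which 3 cells held all its Rgs5. Against the other mesenchymal cells, the Bmp3-led group, which kept the most cells, had a Mgp log2 ratio of -0.49.

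Lists around Mgp were read in the classes where it was high. Of the calcification inhibitors, the pyrophosphate genes Enpp1 and Ank and the ecto-nucleotidase gene Nt5e were among 5 called lower in the Slc13a5 cluster than in other epithelial cells, and Mgp was the only member of that list called higher. That was 5 of 6 measured genes lower, against 40.1% of all genes in this comparison. Ank stood at 2.11 against 71.9 CPM and the elastin gene Eln at 0.263 against 10.1 CPM. Endothelial cells had Mgp and Eln called higher than mesenchyme, Eln at 274 against 18.7 CPM, and 4 of 7 lower, against 16.9% of all genes, among them Spp1 and Enpp1 at 0.

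Mgp binds bone morphogenetic proteins, and 6 of 14 measured genes of that axis were called higher in endothelial cells than in mesenchyme and 3 lower, against 18% and 16.9% of all genes. Eng, a co-receptor gene of endothelium, stood at 815 against 14.6 CPM and the receptor gene Acvrl1 at 153 against 17.4 CPM. Bmp6 stood at 42.7 against 3.84 CPM, while Bmp7 and Bmpr1a were not detected in endothelial cells. In the Slc13a5 cluster Bmp2 was called higher, with 43.1 against 11.4 CPM, and the BMP target genes Id3 and Id1 lower, with log2 ratios of -2.92 and -1.77. In all 3 of 9 measured genes of the list were lower there, no larger a share than the 40.1% of all genes. The cartilage proteoglycan gene Acan stood at 2.61 CPM in mesenchyme and was not detected in epithelium.

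The genes whose level over the 28 clusters was most like that of Mgp were Thsd1 and Gpm6a with r of 0.96, the lipid phosphatase gene Plpp1 at 0.91, the laminin chain gene Lama3 at 0.85 and the proton-sensing receptor gene Gpr4 at 0.81. Chst1 and Btbd3 followed at 0.79 and Plxna4 at 0.78. Thsd1 shows the shared pattern, with 144 CPM in the Emcn cluster, 87.6 CPM in the Slc13a5 cluster and 99.1 CPM in the Atf3 cluster, the same 3 clusters in which Mgp was highest.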

How the data were processed

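The deposited matrix holds whole-number UMI counts per gene and barcode, unnormalized, written by software version 3.0.2 in format version 2 per the file headers. The submitters' processing notes name mm10, R 3.4.1 and Seurat; an aligner and annotation were not given in the sources used here. In all, the matrix held 6794880 barcodes and 68931830 UMIs. Barcodes with at least 500 genes and at most 20% mitochondrial UMIs were kept, then those with a doublet score above 0.15 (scanpy 1.11.5; its automatic threshold called 1 doublet) or over 5% haemoglobin UMIs were removed. Counts were scaled to 10000 per cell, log-transformed and clustered from 2000 variable genes and 30 components (leidenalg 0.10.2, resolution 1; mesenchyme and epithelium again at 0.5; Python 3.11.15, numpy 2.4.6). A cluster was named from at least 3 markers raised 2-fold and present in 25% of its cells.

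Levels are summed counts of a group over its total UMIs, scaled to 1000000 (CPM); since only 3′ ends are counted, transcript length does not enter. Poisson, binomial and Clopper-Pearson intervals are exact at 95% (scipy 1.17.1). A share of cells with a UMI was taken after thinning to 2000 UMIs. A count of 0 was given a floor of 3 counts for ranks and drawings. The procedure was tested on simulated data. The genes named were the 4 members, the 2 to 4 genes with the largest ratio per list and comparison, Runx2, Sp7, Ggcx and Vkorc1, the 8 genes most like Bglap and the 8 most like Mgp among genes with at least 200 UMIs, and up to 5 leading genes per cluster. Genes named beside the ranges of osteocalcin or Mgp level and the splits of clusters were chosen after their values were seen. Members and lists were chosen with earlier results of these data known. Of 108 listed genes, 107 were in the matrix. Values of 1 listed gene are not reported here. RefSeq promoters were matched by symbol for Bglap and Bglap3; Bglap2 and Mgp had no entry. Coding sequences came from the GENCODE M21 transcripts. Alternatives varied the filters, the clustering, the scaling, the free-RNA background and the thinning.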

Additional observations from a re-analysis of the deposited data

How the results depend on the processing

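With 1 library, no value could be set against replicate spread, leaving out a replicate was not possible because no barcode is tied to a sample title, and depth set the limits for the 74 endothelial cells, the 21 cells of the Dspp mesenchymal cluster and the Bglap3 counts. No paired analysis was possible because the data form 1 sample. Of 207 recomputed values, 132 counted as the same, 58 moved without a change of direction and 17 changed direction. A ratio or share counted as the same inside the counting interval of the main value. A count of listed genes did so within a set fold of the main count. Only ratios could change direction. The 11 mineralised matrix genes called higher in mesenchyme and in the Dspp mesenchymal cluster were 11 in every run. The 4 alternatives that left out the 21 cells, the 2 top Cldn10 cells or the Rgs5 cells, or split endothelium by Vwf, were chosen after seeing the data. Subtracting free RNA gave no value for the 2 class comparisons, since a side came to 0 or below. The same held for Mgp in the Slc13a5, Dspp epithelial and Igf1 mesenchymal clusters. The subtraction took off the full droplet level, 315 CPM for Bglap and 225 CPM for Mgp. Macrophage-like cells held these genes at 21.2 and 2.05 CPM.

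All changes of direction concerned the Sct, Cldn10 and Igf1 mesenchymal clusters. The Sct and Cldn10 ratios were taken against cells that included the osteocalcin-rich Dspp mesenchymal cluster. Log2 ratios are given for 1000 detected genes, the 10% mitochondrial limit and no removal of doublets or haemoglobin-rich cells, in that order. For the Sct cluster they were -5.19, -4.41 and -4.38 for Bglap, -2.99, -2.48 and -2.52 for Bglap2, and -5.21, -3.87 and -3.78 for Bglap3; in these 3 runs the Sct cells came apart, and the ratios are of the larger, Lgals3- or Plac8-led piece, whereas the Dmp1-led piece of 187, 156 and 181 cells held Bglap at 3765, 4342 and 3973 CPM. The largest piece of finer mesenchymal sub-clustering gave -1.41, -0.11 and -0.77 for the 3 copies. For Bglap in the Cldn10 cluster they were -0.14, -0.37 and -0.043, and -0.49 without its 2 top cells. Finer sub-clustering gave -0.49 for Mgp in the Igf1 cluster.

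The other main ratios kept their direction. Bglap between mesenchyme and epithelium was 6.26 with equal weights, 8.23 at the 10% limit and 6.75 without the 21 cells; Mgp was -5.02 with equal weights and -6.50 at the 10% limit. Mgp in endothelium was 7.05 with equal weights and 8.05 at the 10% limit. Bglap in the Dspp mesenchymal cluster was 6.30 with 1000 genes, 6.57 with equal weights, 7.22 with free RNA subtracted, 6.33 with the listed genes kept in the clustering, 6.27 without removal and 6.48 with totals that left out genes above 1% of UMIs. Mgp in the Slc13a5 cluster was 1.85 with 1000 genes, 3.20 with equal weights, 1.77 at the 10% limit and 3.37 with those totals. With 1000 genes the matched cluster held 161 cells, 159 of them from the main 264. At the 10% limit it held 189 cells, 187 of them from the main cluster. The other cells were filtered out or lay in other clusters. The share of mesenchymal cells with Bglap was 6.44% at 3 UMIs or more, 21.02% unthinned and 10.3% at 1000 UMIs, and that of epithelial cells with Mgp 6.05%, 41.4% and 16.3%. Beyond the settings named, the cause of these shifts was not tested.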
